A study of Drosophila melanogaster with 22 samples.

Results

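The receptors for serotonin, octopamine and dopamine were followed through RNA-seq libraries of larval Drosophila brain cells. They comprise 8 of the 15339 genes in the deposited tables: the serotonin receptors 5-HT1A, 5-HT1B, 5-HT2 and 5-HT7, the octopamine receptors Octbeta2R and Oamb, and the dopamine receptors DopR and DopEcR. The genes were taken by their exact symbols, and each had counts in at least 1 library. Each library came from a pool of 47 to 124 brain cells that carried a GFP label and were collected by a sorting robot. There were 2 libraries of neurons and 2 of glia, both from wandering larvae, and 18 of neuroblasts, the neural stem cells, at 50 h after hatching. The neuroblast libraries fell into 6 groups of 3: mushroom body neuroblasts with a 2 h wait, mushroom body neuroblasts with 3 washes, mushroom body neuroblasts without either, antennal lobe neuroblasts, type II neuroblasts, and neuroblasts pooled over lineages. All groups share the GFP label and the robotic sort. The sources used here do not give the fly genotypes, the driver of the label or the details of the wait and of the washes. They also do not state whether replicate libraries came from separate preparations, so p-values measure only the spread between these libraries, which may be technical. Cell type and larval age cannot be told apart in any comparison of neurons or glia with neuroblasts.

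Serotonin, octopamine and dopamine are the main monoamine modulators of the insect brain, and octopamine serves there in roles that noradrenaline has in vertebrates. The amines are released by few neurons with widely branching axons and act on receptors that couple to G proteins and alter the excitability of the receiving cell over a longer time than fast transmitters do. 5-HT1A and 5-HT1B lower cAMP through inhibitory G proteins, 5-HT7 raises cAMP, and 5-HT2 acts through calcium. Octbeta2R raises cAMP, while Oamb acts through calcium and is needed for octopamine-dependent learning and ovulation in flies. DopR, also called Dop1R1, is the D1-like receptor of the mushroom bodies that flies need for odour learning. DopEcR binds both dopamine and the moulting steroid ecdysone.

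In the authors' annotation (dm3 build) 5 of the 8 genes lie on chromosome 3R. 5-HT2 spans 448224 to 459026 on the plus strand of 3R, and the other four lie on its minus strand: Octbeta2R at 8378211 to 8386888, DopR at 10003005 to 10040532, Oamb at 16518136 to 16540263, and 5-HT7 at 26794864 to 26842569. DopEcR lies on the minus strand of 3L at 4369134 to 4380387. The inhibitory receptors 5-HT1A (2R, 14954660 to 15009463, plus strand) and 5-HT1B (2R, 14909830 to 14920147, minus strand) are neighbours, with 34512 bp between them. 5-HT1A overlaps Ir56a on the opposite strand, which had 146 counts over all 22 libraries, and read strand is not given. 5-HT7 overlaps CG31007 and CG31008 on its own strand, neither with more than 130 counts over the 22 libraries, and 5-HT1B overlaps CG43351, which had no count. The spans of 6 members are shorter in this annotation than in the RefSeq table for the fly. Octbeta2R covers 8678 bp against 45101 bp, 5-HT2 10803 bp against 20435 bp and DopR 37528 bp against 49432 bp. The gap is smaller for Oamb (22128 against 25560 bp), DopEcR (11254 against 12739 bp) and 5-HT7 (47706 against 48640 bp). These are genomic spans with introns, and reads in parts of a gene outside the authors' model were not counted for it. Levels are in TPM, the authors' measure of abundance per transcript length, which sums to 1000000 over the genes of a library.

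The libraries held 3150371 to 14282246 counts in genes and 8958 to 11779 detected genes. Markers set out by cell type followed the labels: the 11 neuronal markers summed to 5513 to 7786 TPM in neurons, 611 to 918 TPM in glia and 237 to 393 TPM in neuroblast libraries, and the 10 glial markers summed to 346 to 545 TPM in neurons, 18296 to 36602 TPM in glia and 284 to 528 TPM in neuroblast libraries. The synaptic gene Rim had no count in glia. The 7 neuroblast markers summed to 7.24 to 12.1 TPM in neurons, with ase at 0, and to 108 to 373 TPM in glia. The 8 blood cell markers summed to 53.7 to 76.9 TPM in neurons and 228 to 298 TPM in glia, and the 5 fat body markers to 0.632 to 6.34 TPM in neurons and 458 to 1441 TPM in glia. The part of RNA from such cells in the glia results was not tested.

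All 8 receptors were highest in neurons, and for each the lower neuron library lay above every one of the other 20 libraries. The same held for 9.51% of the 14190 genes with a count in any library. Of the tested genes, 25.2% had both neuron libraries above all pooled neuroblast libraries and 26.3% had them above both glia libraries. Summed over the 8 genes, the level was 625 and 1317 TPM in the neuron libraries, 17.02 and 32.5 TPM in glia, and 2.81 to 30.4 TPM in the 18 neuroblast libraries. The gap between neurons and everything else differed between the genes. The lower neuron value was 143 times the highest other library for 5-HT1A and 71.5 times for Oamb, but 1.77 times for 5-HT2, 2.16 times for Octbeta2R and 2.46 times for 5-HT7. DopEcR, DopR and 5-HT1B lay between, at 12.4, 12.1 and 24.6 times. In these pools a smaller number of expressing cells and less RNA in each cell cannot be told apart.

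**Figure D1:**
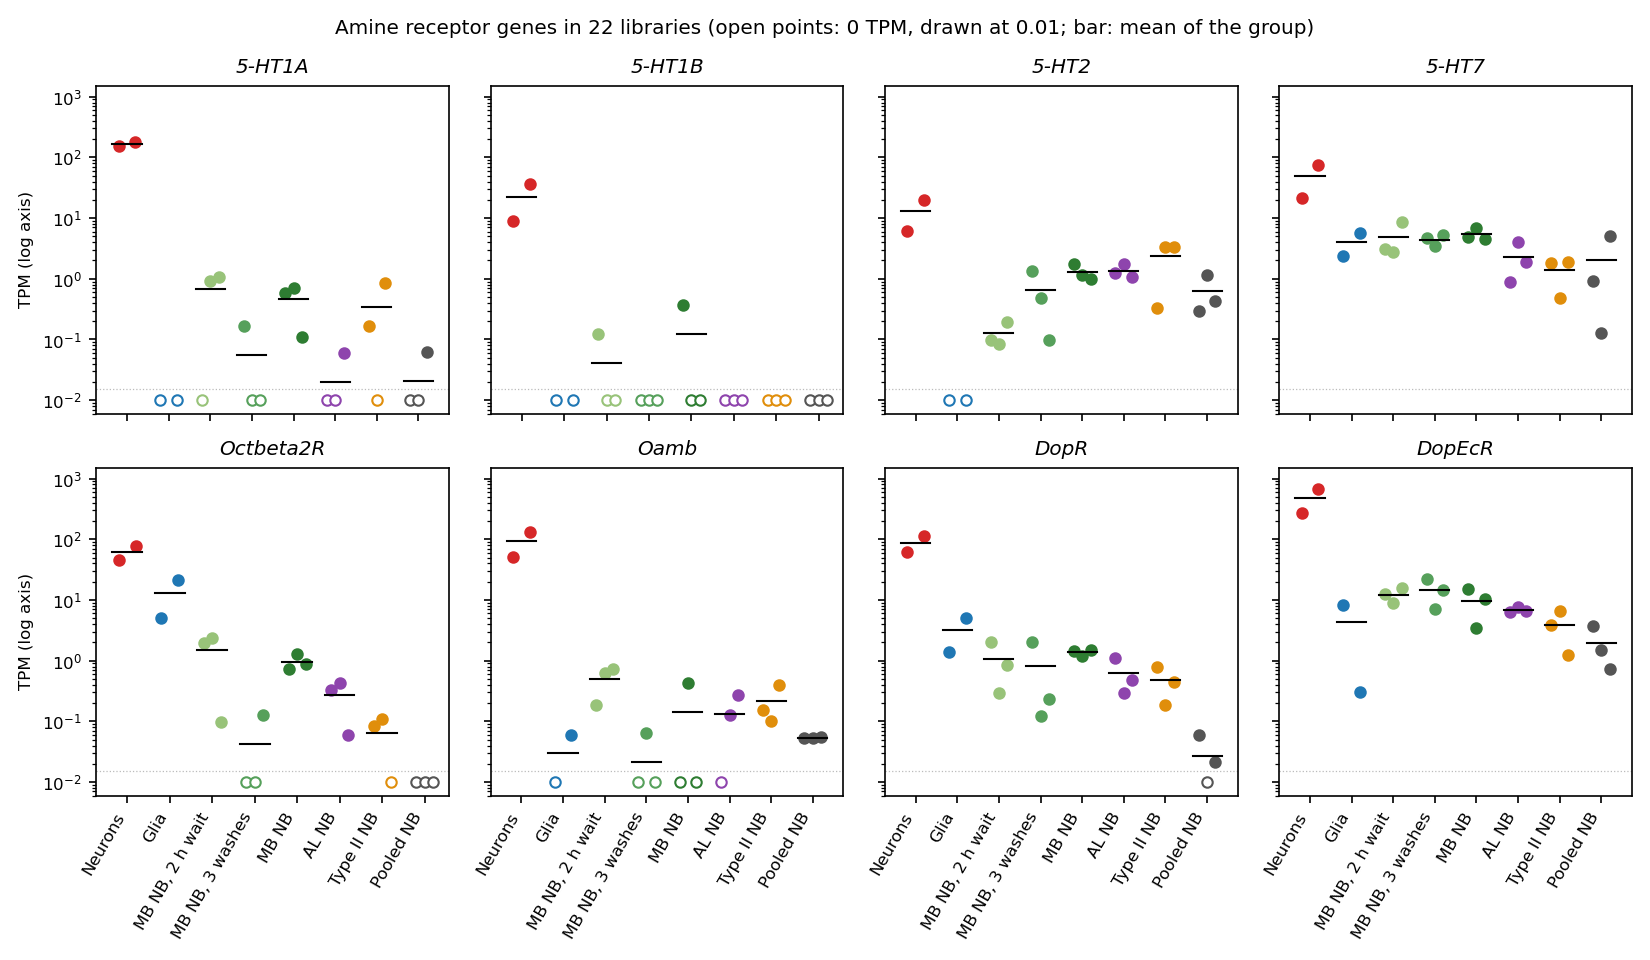
Level of each receptor in every library, in TPM on a log axis, with groups from left to right as neurons, glia, mushroom body (MB) neuroblasts (NB) with a 2 h wait, with 3 washes and without either, antennal lobe (AL) NB, type II NB and pooled NB; each point is 1 library, bars are group means, and open points at the bottom have no count. Both neuron points lie above all other points in each of the 8 panels, by 143 times for 5-HT1A and by 1.77 times for 5-HT2.

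Among the serotonin receptors, 5-HT1A was the most abundant in neurons, at 155 and 178 TPM. Glia had no count of it in either library, where 3 counts would have been 0.197 to 0.212 TPM, and the pooled neuroblasts had 0, 0 and 0.0615 TPM. Its neuron libraries were close to each other (166 ± 16.2 TPM, SD, n = 2), the smallest relative spread among the members. With 3466 counts in neurons and 1 count in pooled neuroblasts the ratio of scaled counts was 8690, with a 95% counting interval of 1559 to 343328, and edgeR's quasi-likelihood test gave an adjusted p of 6.55e-05. Against glia it was at least 1401-fold higher in neurons, with the glia set at 3 counts over the group (adjusted p = 0.000284, edgeR).

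The neighbouring 5-HT1B was lower, at 9.06 and 36.2 TPM in neurons, with no count in glia or in pooled neuroblasts. Over the 18 neuroblast libraries it had 3 counts, in 2 mushroom body libraries. The 2 neuron libraries differed from each other by more than the gene's level in the lower one. It was at least 347-fold higher in neurons than in pooled neuroblasts (415 against 0 counts, adjusted p = 0.00918, edgeR) and at least 168-fold higher than in glia (adjusted p = 0.0251). Both calls rest on the second neuron library: without it the adjusted p was 0.0538 against pooled neuroblasts and 0.0913 against glia.

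5-HT2 was the least abundant member in neurons, at 6.01 and 19.9 TPM. It had no count in glia, and the pooled neuroblasts had 0.289, 1.14 and 0.426 TPM. Every one of the 18 neuroblast libraries had counts of it, from 0.0837 to 3.39 TPM with a median of 1.03 TPM. The higher end of that range is near the lower neuron library, so 5-HT2 set neurons apart least of the 8 genes. It was higher in neurons than in pooled neuroblasts by 4.36 ± 1.27 on the log2 scale (SE, adjusted p = 0.0405, edgeR), and at least 120-fold higher in neurons than in glia (adjusted p = 0.0141). The call against pooled neuroblasts was lost in 7 of 15 alternative settings, among them leaving out the second neuron library (adjusted p = 0.168) or any 1 of the pooled neuroblast libraries (adjusted p = 0.0969 to 0.159), and with scaling to the spike-in RNA the difference was 2.50 (adjusted p = 0.142).

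5-HT7 was at 21.5 and 76.1 TPM in neurons, 2.37 and 5.67 TPM in glia, and 0.915, 0.129 and 5.09 TPM in pooled neuroblasts. Like 5-HT2 it had counts in each of the 18 neuroblast libraries, with a median of 3.31 and a highest value of 8.72 TPM. Its glia values lay within the range of the neuroblasts. The gene was higher in neurons than in pooled neuroblasts by 4.54 ± 1.31 (log2, SE, adjusted p = 0.0348, edgeR), a call lost without the second neuron library (adjusted p = 0.157), without the first or the second pooled neuroblast library (adjusted p = 0.116 and 0.0674), and with spike-in scaling (2.78, adjusted p = 0.10). The difference between neurons and glia, 3.33 ± 1.47, did not pass (adjusted p = 0.137), though 3 of 13 alternatives called it higher in neurons (DESeq2, spike-in scaling and a fit of all 22 libraries, adjusted p = 0.0202 to 0.042), and neither did that between glia and pooled neuroblasts, 1.22 ± 1.22 (adjusted p = 0.497).

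Of the octopamine receptors, Octbeta2R had the highest mean glial level of any member, although in the first glia library DopEcR was higher (8.28 against 4.98 TPM). It was at 46.3 and 78.6 TPM in neurons, 4.98 and 21.4 TPM in glia, and had no count in the 3 pooled neuroblast libraries, where 3 counts would have been 0.172 to 0.183 TPM. Neurons and glia did not overlap, but the glia reached 7.97 to 34.3% of the neuron mean. Octbeta2R was at least 1136-fold higher in neurons than in pooled neuroblasts (1359 against 0 counts, adjusted p = 0.000728, edgeR) and at least 275-fold higher in glia than in pooled neuroblasts (399 against 0 counts, adjusted p = 0.00206). Between neurons and glia the difference of 2.04 ± 0.89 (log2, SE) did not pass (adjusted p = 0.147), while without the second glia library it was 3.40 with an adjusted p of 0.0487.

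Oamb, the calcium-coupled octopamine receptor, had a different distribution. It was at 51.5 and 132 TPM in neurons, 0 and 0.0601 TPM in glia, and 0.0533, 0.0527 and 0.0562 TPM in pooled neuroblasts. Those low values are 1 count in all of the glia and 1 count in each pooled neuroblast library. The ratio of scaled counts was 1875 in neurons over pooled neuroblasts (95% counting interval 641 to 9097, adjusted p = 6.93e-05, edgeR) and 2721 in neurons over glia (488 to 107517, adjusted p = 0.000343). No difference between glia and pooled neuroblasts was detectable at 1 and 3 counts.

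DopR was at 61.0 and 114 TPM in neurons, 1.39 and 5.06 TPM in glia, and 0.0604, 0 and 0.0212 TPM in pooled neuroblasts. The 3 groups did not overlap. Of all tested genes, 24.0% had both glia libraries above all pooled neuroblast libraries. Neurons exceeded pooled neuroblasts by 11.52 ± 0.96 and glia by 4.55 ± 0.81 (log2, SE), with adjusted p of 8.19e-05 and 0.00631 (edgeR). Glia exceeded pooled neuroblasts by 6.97 ± 0.87 (adjusted p = 0.00100, 280 against 4 counts); limma on log2(TPM + 1) gave 1.89 for this difference (adjusted p = 0.0771), a scale on which values well under 1 TPM are compressed.

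DopEcR was the most abundant of the 8 receptors in neurons, at 275 and 682 TPM. Glia had 8.28 and 0.308 TPM and pooled neuroblasts 3.76, 1.49 and 0.720 TPM, so those groups overlapped. The difference was 7.89 ± 1.22 for neurons over pooled neuroblasts (log2, SE, adjusted p = 0.00204, edgeR), 6.52 ± 1.38 for neurons over glia (adjusted p = 0.0130), and 1.37 ± 1.04 for glia over pooled neuroblasts (adjusted p = 0.364). Of the members with counts in both glia libraries, DopEcR had the largest ratio between them.

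Against pooled neuroblasts, 8 of 8 receptors were thus higher in neurons, where 14.5% of the 9855 tested genes were called higher. The members were chosen with earlier results of these data known. 5-HT1B, with no count in glia or pooled neuroblasts, passed the filter on low counts through the neuron libraries alone. So did 5-HT1A, with 0 counts in glia and 1 in pooled neuroblasts, and Oamb, with 1 and 3. These genes could be tested only because of their level in neurons. The median log2 difference of the 8 was 10.72, or 9.29 with the genes without counts set at their limits, and that of all tested genes was -0.18. In glia 2 of 8 were higher than in pooled neuroblasts, Octbeta2R and DopR, against 13.6% of all genes. The medians were 0.61 for the receptors and 0.00 for all genes, so little can be read from the count for the 8 together. Between neurons and glia 6 of 8 were higher in neurons, against 9.37% of all genes, with medians of 8.49 (6.71 at the limits) and -0.23. No receptor was called lower in glia than in pooled neuroblasts, where 7.0% of all genes were, but 5-HT2, with 0 counts in glia against 32 in pooled neuroblasts, was at least 5.16-fold lower with an adjusted p of 0.0632, and 4 of the alternatives called it lower (adjusted p = 0.00220 to 0.0182). Spike-in scaling, which sets levels by the added spike-in RNA, put the median of all genes at -1.94 in neurons over pooled neuroblasts, -3.45 in glia over pooled neuroblasts and 1.52 in neurons over glia. With it 6 receptors remained higher in neurons than in pooled neuroblasts, where 828 of all genes were called higher. In glia over pooled neuroblasts 5-HT2 and Oamb were called lower beside the 2 called higher, where 5648 of all genes were lower and 249 higher.

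**Figure D2:**
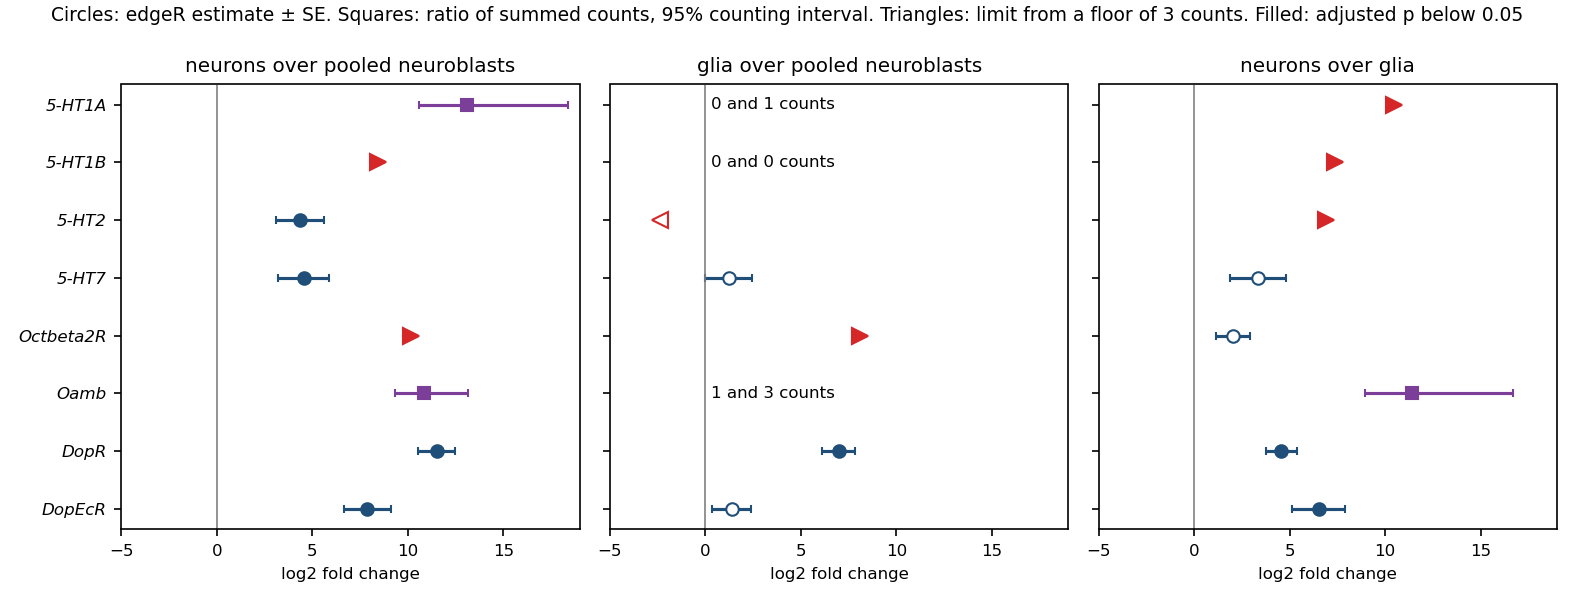
Log2 fold change of each receptor in the 3 comparisons of cell types. Circles are edgeR estimates with SE, squares are ratios of summed scaled counts with 95% counting intervals where a group had 1 to 3 counts, triangles are limits from a floor of 3 counts where a group had none, and filled symbols have an adjusted p below 0.05. All 8 symbols are filled for neurons over pooled neuroblasts, 2 for glia over pooled neuroblasts and 6 for neurons over glia.

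The order of the receptors by TPM was nearly the same in both neuron libraries: DopEcR first, 5-HT1A second, then Oamb and DopR in exchanged places, followed by Octbeta2R, 5-HT7, 5-HT1B and 5-HT2. The dopamine receptors made up 53.8 and 60.4% of the summed receptor level, the serotonin receptors 30.6 and 23.5%, and the octopamine receptors 15.7 and 16.03%. All 8 were higher in the second neuron library, as were all 11 neuronal markers and 62.4% of 7096 genes at 10 TPM or more in a neuron library. In the first neuron library 31.9% of gene counts came from the noncoding genes CR41602 and CR40677, against 11.8% in the second. With TPM recomputed without them, 7 of 8 receptors were higher in the second library, by 1.25 to 2.93 times, 5-HT1A was lower (0.843 times), and 50.6% of the genes were higher.

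The glia libraries did not share a leading receptor. DopEcR held 48.6% of the summed level in the first, with the dopamine receptors at 56.8% and the octopamine receptors at 29.3%, while in the second the octopamine receptors held 66.1%, nearly all of it Octbeta2R, and the dopamine receptors 16.5%. In neuroblasts DopEcR was the leading receptor in 15 of 18 libraries. 5-HT7 led in the third pooled library and the second mushroom body library, and 5-HT2 led in the third type II library.

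**Figure D3:**
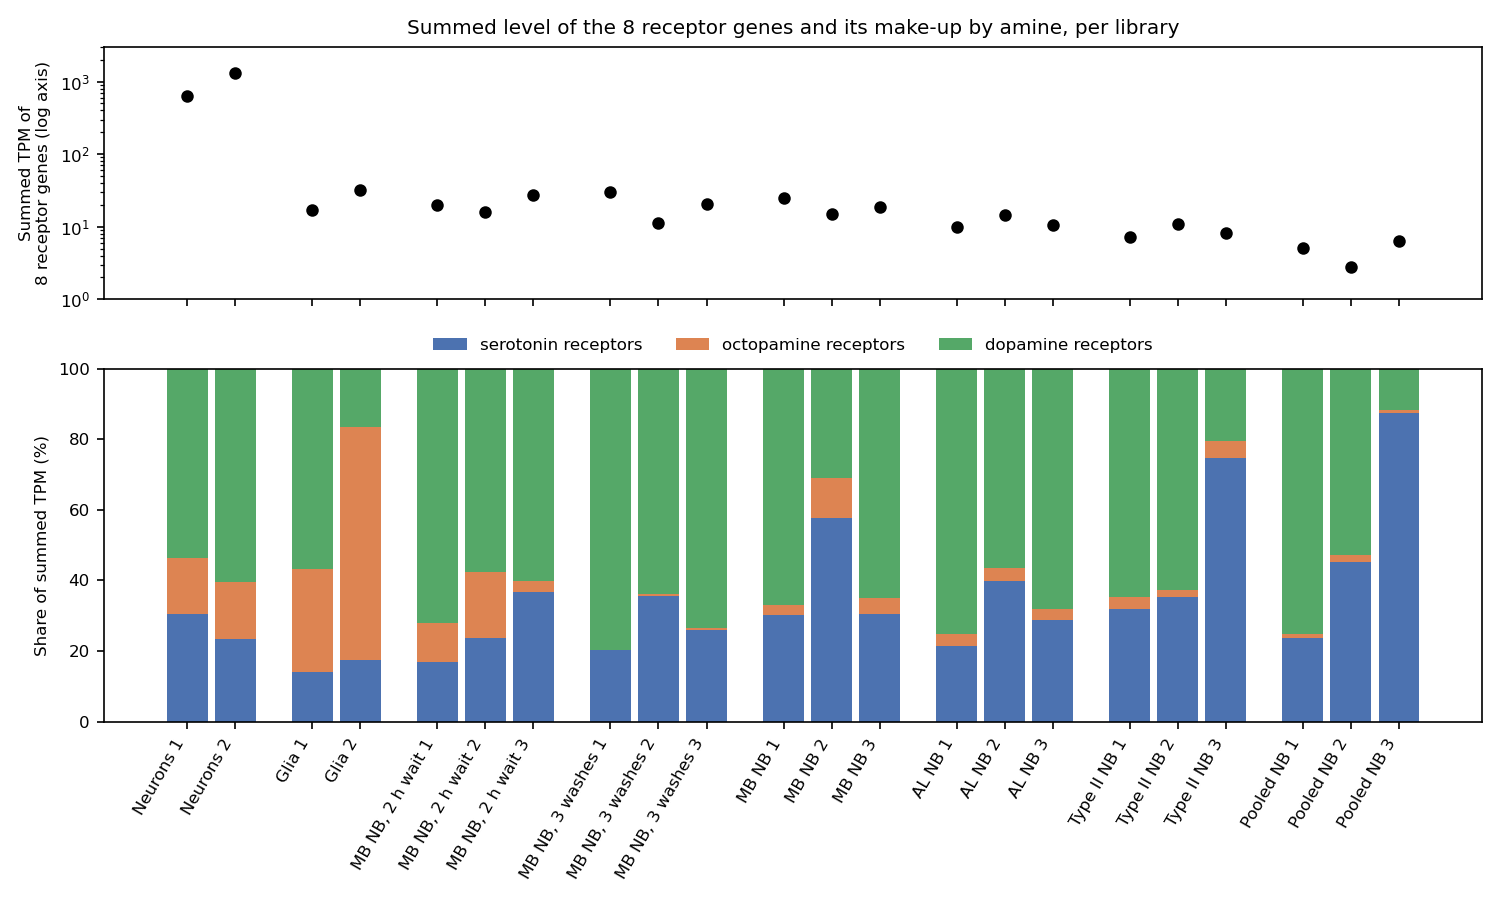
Upper panel, TPM summed over the 8 receptors on a log axis, and lower panel, the percentage of that sum from serotonin, octopamine and dopamine receptors, each point or bar 1 library of neurons, glia or neuroblasts (NB) of mushroom body (MB), antennal lobe (AL), type II or pooled lineages. The neuron points, at 625 and 1317 TPM, lie above all others, and the octopamine share is 66.1% in the second glia library.

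The lineage comparison asked which receptors differ between neuroblasts of named lineages and neuroblasts pooled over lineages. DopR was the member called higher in all 3 lineages. It was at 1.43, 1.22 and 1.48 TPM in mushroom body neuroblasts, 1.11, 0.293 and 0.476 TPM in antennal lobe neuroblasts and 0.785, 0.188 and 0.442 TPM in type II neuroblasts, against 0.0604, 0 and 0.0212 TPM in pooled neuroblasts. In mushroom body neuroblasts, all libraries lay above all pooled ones for 16.8% of tested genes. The share was 16.002% in antennal lobe and 10.4% in type II neuroblasts. DopR was among these genes in all 3 lineages. The differences were 5.52 ± 1.06 in mushroom body (97 against 4 counts, adjusted p = 0.000845), 4.40 ± 1.03 in antennal lobe (83 against 4 counts, adjusted p = 0.00507) and 4.02 ± 1.03 in type II neuroblasts (44 against 4 counts, adjusted p = 0.0188), all log2 with SE and from edgeR. The mushroom body call was kept in all 15 alternatives. In type II neuroblasts the call was lost without the second or the third pooled library or the first type II library (adjusted p = 0.0690 to 0.0993), and limma on log2(TPM + 0.1) gave an adjusted p of 0.0917 in antennal lobe and 0.240 in type II neuroblasts.

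Octbeta2R, without a count in pooled neuroblasts, was at 0.733, 1.28 and 0.873 TPM in mushroom body neuroblasts, 0.332, 0.422 and 0.0595 TPM in antennal lobe neuroblasts and 0.0837, 0.108 and 0 TPM in type II neuroblasts. In the mushroom body group it was at least 17.3-fold higher than in pooled neuroblasts (24 against 0 counts, adjusted p = 0.0198, edgeR), a call lost without any 1 of the pooled libraries or without the second or the third mushroom body library (adjusted p = 0.0514 to 0.0783). Its 12 counts in antennal lobe neuroblasts against 0 did not pass (adjusted p = 0.0718). With no pooled count, and 12 and 2 counts in antennal lobe and type II neuroblasts, Octbeta2R passed the filter on low counts through the mushroom body libraries alone. DopR, with 4 counts in pooled neuroblasts, passed it through the lineage libraries alone. DopEcR was at 15.2, 3.44 and 10.6 TPM in mushroom body neuroblasts, 6.43, 7.80 and 6.68 TPM in antennal lobe neuroblasts and 3.85, 6.64 and 1.25 TPM in type II neuroblasts, against 3.76, 1.49 and 0.720 TPM in pooled ones. It was higher by 2.30 ± 0.64 in mushroom body (adjusted p = 0.0173) and 1.83 ± 0.63 in antennal lobe neuroblasts (adjusted p = 0.0464), though the mushroom body libraries overlapped the pooled ones. Those DopEcR calls were lost in 8 and 9 of 15 alternatives, among them leaving out the second or the third pooled library (adjusted p = 0.0631 to 0.169), the first or the third mushroom body library (adjusted p = 0.0894 and 0.0503), or any 1 antennal lobe library (adjusted p = 0.0735 to 0.104).

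The serotonin receptors 5-HT2 and 5-HT7 passed the filter on low counts but no lineage call. 5-HT2 was at 1.75, 1.16 and 0.980 TPM in mushroom body, 1.26, 1.75 and 1.07 TPM in antennal lobe and 0.334, 3.35 and 3.39 TPM in type II neuroblasts, against 0.289, 1.14 and 0.426 TPM in pooled ones; its largest difference was 1.99 ± 0.95 in type II neuroblasts (log2, SE, adjusted p = 0.262, edgeR). The first type II library lay with the pooled libraries and the other two above all of them. 5-HT7 was at 4.79, 6.84 and 4.56 TPM in mushroom body neuroblasts against 0.915, 0.129 and 5.09 TPM in pooled ones, a difference of 1.44 ± 0.87 (adjusted p = 0.291); without the third pooled library the difference was 3.36 (adjusted p = 0.0358). 5-HT1A, 5-HT1B and Oamb were under the filter and were not tested. In mushroom body, antennal lobe, type II and pooled neuroblasts, 5-HT1A had 11, 1, 10 and 1 counts, 5-HT1B had 2, 0, 0 and 0, and Oamb had 4, 7, 7 and 3.

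**Figure D4:**
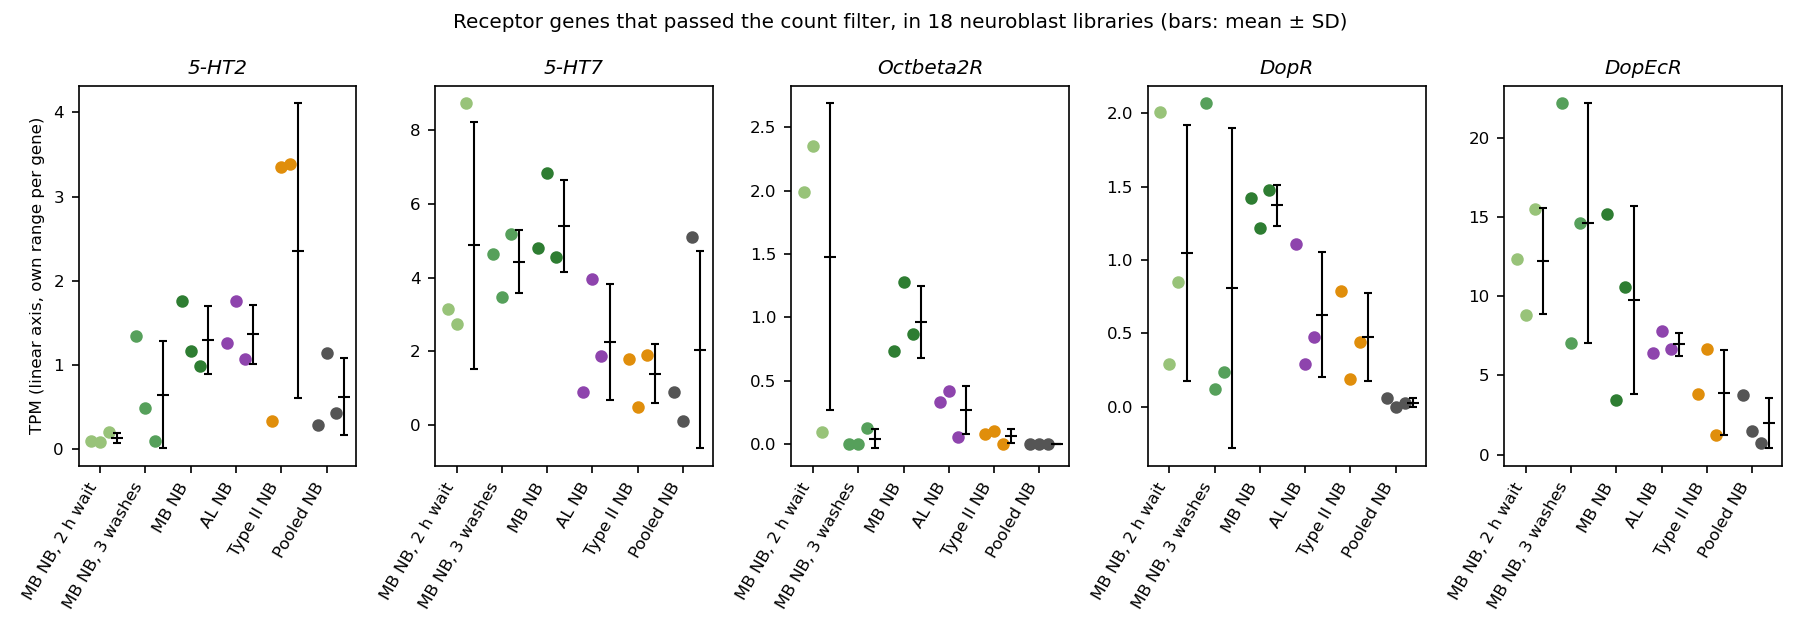
Receptor levels in the neuroblast (NB) groups in TPM on a linear axis, each point 1 library, with group means and SD (n = 3); MB is mushroom body and AL antennal lobe. DopR lies between 0.188 and 1.48 TPM in MB, AL and type II libraries without a wait or washes, all above the pooled libraries at 0 to 0.0604 TPM.

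In all, 3 of the 5 tested receptors were called higher in mushroom body neuroblasts, where 8.92% of 9249 tested genes were. In antennal lobe neuroblasts 2 were, against 10.0% of genes, and in type II neuroblasts 1 was, against 3.72%. Octbeta2R and DopR passed the filter on low counts only through groups in which they were called higher, so no enrichment is read from these counts. The receptor levels in these lineages are small beside those in neurons. DopR reached 1.57% of its neuron mean in mushroom body neuroblasts, 0.714% in antennal lobe and 0.538% in type II neuroblasts, against 0.0310% in pooled ones. Neuronal markers were called higher in the same lineages. Of 10 tested, these were n-syb (2.75), elav (0.69) and Syt1 (4.46) in mushroom body neuroblasts, n-syb (2.72), elav (0.95), Syt1 (4.30) and para (2.42) in antennal lobe neuroblasts, and elav (0.57) in type II neuroblasts, all log2 differences by edgeR. In type II neuroblasts n-syb (1.45, adjusted p = 0.208) and Syt1 (0.85, adjusted p = 0.729) did not pass. No marker was called lower, while negative differences were seen for Syx1A (-0.29) and VGlut (-2.61) in mushroom body, Syx1A (-0.23) in antennal lobe, and VGlut (-1.29) and Gad1 (-1.38) in type II neuroblasts. Against their neuron means, n-syb was at 0.347, 0.333 and 0.135% in mushroom body, antennal lobe and type II neuroblasts and 0.0522% in pooled ones, and Syt1 at 2.43, 2.18 and 0.187% and 0.112%. The summed level of all 11 markers was 286 to 364, 308 to 352 and 285 to 374 TPM in the 3 lineages against 237 to 371 TPM in pooled neuroblasts. The part of such neuronal RNA in the receptor differences was not tested. In glia, 7 of the 11 markers were called higher than in pooled neuroblasts, against 13.6% of all tested genes. As a share of the neuron mean, Syx1A was at 74.2% and elav at 14.4% in glia, Rim had no count, and the other 8 were at 0.0340 to 2.15%, n-syb at 1.08% and Syt1 at 1.59% among them. Octbeta2R was at 21.1%, 5-HT7 at 8.24% and DopR at 3.68%, and the part of neuronal RNA in these glial levels was not tested either.

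The handling of mushroom body neuroblasts before lysis was compared through the 2 h wait and the 3 washes. None of the 5 receptors that passed the filter was called in either comparison by edgeR's quasi-likelihood test or by DESeq2. By each tool 1 receptor per comparison was under an unadjusted p of 0.05. By edgeR, 727 of the 8766 tested genes were under it with the wait and 718 with the washes. With the wait, 0.0228% of 8766 tested genes were called in either direction, and with the washes 0.833%. 5-HT2 was at 0.0993, 0.0837 and 0.195 TPM with the wait against 1.75, 1.16 and 0.980 TPM without it, 4 against 31 counts. The groups did not overlap, and the difference was -3.23 ± 1.403 (log2, SE, unadjusted p = 0.0305, adjusted p = 0.545, edgeR). Octbeta2R was at 0, 0 and 0.128 TPM with the washes against 0.733, 1.28 and 0.873 TPM without them, 4 against 24 counts. These groups did not overlap either, and the difference was -3.89 ± 1.45 (unadjusted p = 0.0131, adjusted p = 0.370, edgeR). Lower values without overlap were seen in 7.65% of all tested genes with the wait and in 7.57% with the washes. The most abundant receptor, DopEcR, was at 12.3, 8.81 and 15.5 TPM with the wait and 22.2, 7.04 and 14.6 TPM with the washes, against 15.2, 3.44 and 10.6 TPM without either, so the groups overlapped. With spike-in scaling the washes gave 1.28 for it (log2, adjusted p = 0.0360, edgeR). In that setting 2126 of all genes were called higher with the washes and 8 lower, and the median of all genes was 0.77. 5-HT7 and DopR overlapped between the handling groups as well, with log2 differences of -0.83 to -0.10.

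Below neurons, most neighbouring groups in the order of a receptor's mean TPM overlapped, so that no fine order can be read. The exceptions were 5-HT2, whose pooled neuroblasts lay above mushroom body neuroblasts with a wait and those above glia; Octbeta2R, whose glia lay above all neuroblasts and whose mushroom body neuroblasts lay above antennal lobe ones; and DopR, whose type II neuroblasts lay above pooled ones. Type II libraries lay above all pooled ones for 10.4% of tested genes, and no share over all genes was taken for the other neighbouring groups. Per cell, from the spike-in RNA, its added volume and the number of cells, the mean in neurons set at 1, the distances between cell types were smaller for neuroblasts and larger for glia. 5-HT2 was then at 0.860 ± 0.486 in type II neuroblasts and 0.326 ± 0.0538 in antennal lobe neuroblasts (SD, n = 3 each). For 5-HT7 the value in glia was 0.0328 ± 0.0237 and that in mushroom body neuroblasts 0.260 ± 0.0363, and Octbeta2R was at 0.0785 ± 0.0772 in glia (SD, 2 glia and 3 neuroblast libraries). DopEcR was at 0.0153 to 0.120 in the neuroblast groups. The first type II library had 6930 spike-in counts, the fewest of all libraries.

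The remaining receptors for these amines and for tyramine, 9 genes, were followed in the same way. In neurons over pooled neuroblasts 8 of 9 were higher, where 14.5% of all tested genes were. These were the octopamine receptors oa2 (Octbeta1R in RefSeq; 7.93 ± 1.00 on the log2 scale, SE), Octbeta3R (7.13 ± 0.91) and CG18208 (Octalpha2R; 7.65 ± 0.84), the octopamine and tyramine receptor Oct-TyrR (6.90 ± 1.32), the serotonin receptor CG42796 (5-HT2B; 5.98 ± 1.60), TyrR (at least 776-fold), DopR2 (Dop1R2; ratio 1336, 95% counting interval 369 to 11049) and D2R (Dop2R; ratio 2238, interval 765 to 10859). TyrRII, at 2.36 and 2.38 TPM in neurons, did not pass (adjusted p = 0.0946, edgeR). TyrR, with no count in glia or pooled neuroblasts, and DopR2, with 2 counts in each group, passed the filter on low counts through the neuron libraries alone. The most abundant was oa2, at 189 and 231 TPM in neurons, 0 and 1.10 TPM in glia and 0.628 to 1.19 TPM in pooled neuroblasts.

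In glia over pooled neuroblasts 3 of the 9 were higher, against 13.6% of all tested genes. They were CG18208 (6.72 ± 0.81, adjusted p = 0.000858), Octbeta3R (5.38 ± 0.85, adjusted p = 0.00326) and D2R (adjusted p = 0.0269, edgeR). Spike-in scaling gave 1 higher and 2 lower, where 249 of all genes were higher and 5648 lower. CG18208 was at 77.8 and 79.7 TPM in neurons and 15.03 and 59.7 TPM in glia, and Octbeta3R at 62.0 and 32.9 TPM in neurons and 7.33 and 19.1 TPM in glia. Both are octopamine receptors and, like Octbeta2R, had counts in both glia libraries, as did 5-HT7, DopR, DopEcR and DopR2. The octopamine receptors Oamb and oa2, and Oct-TyrR, had counts in 1 glia library each (0.0601, 1.10 and 0.0897 TPM). D2R had counts in the first glia library alone (10.7 and 0 TPM), and without that library its difference was -2.94 (adjusted p = 0.377). Neurons exceeded glia for 4 of the 9, oa2, Oct-TyrR, TyrR and DopR2, against 9.37% of all tested genes. In neuroblast lineages against pooled neuroblasts, of 6 tested, DopR2 and TyrR were higher in mushroom body, and DopR2 alone in antennal lobe and in type II neuroblasts (adjusted p = 0.0162, 0.0280, 0.0202 and 0.0353). Of all tested genes 8.92, 10.0 and 3.72% were higher in these 3 lineages, in that order. TyrR had 28 counts in mushroom body, 3 in antennal lobe, 3 in type II and 0 in pooled neuroblasts, so it passed the filter on low counts through the mushroom body libraries alone. DopR2, with 2 counts in pooled neuroblasts, passed it through the lineage libraries alone. TyrR was no longer called when any 1 of the 6 libraries was left out (adjusted p = 0.0517 to 0.0943). DopR2 lost its call in 4, 6 and 6 of 15 alternatives in mushroom body, antennal lobe and type II neuroblasts. Among these were leaving out the third pooled library in each (adjusted p = 0.0643, 0.0757 and 0.122), the third mushroom body library (0.0507), the second pooled or the second antennal lobe library (0.0557 and 0.0933), and, in type II neuroblasts, the first or the second pooled or the second type II library (0.0787, 0.0835 and 0.130).

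**Figure D5:**
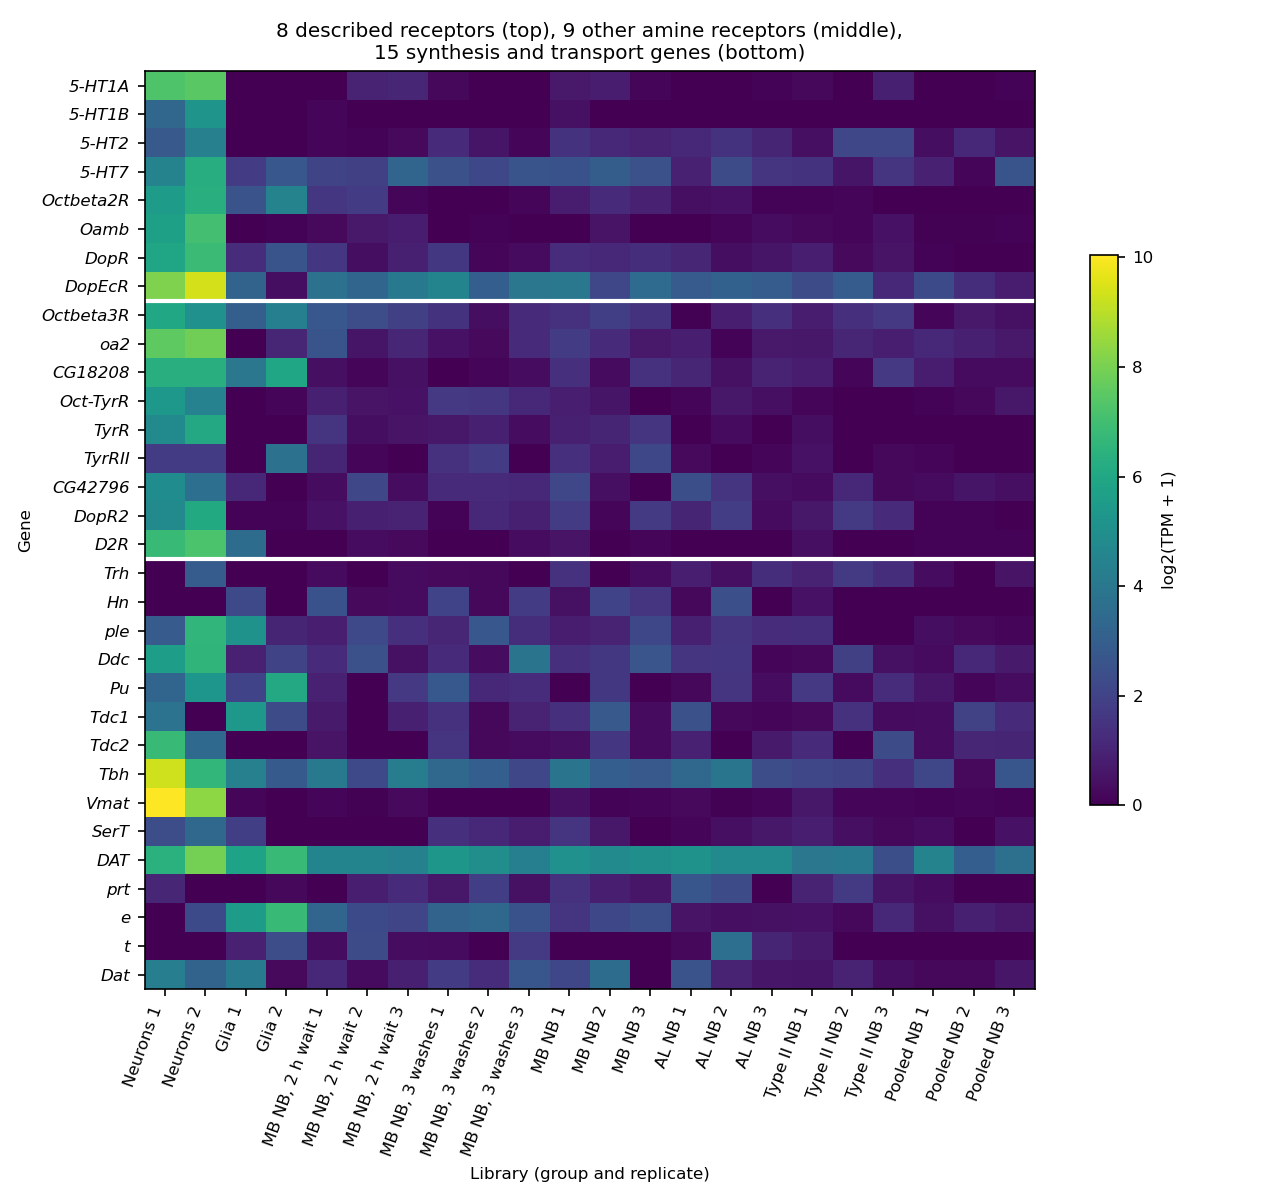
Colour gives log2(TPM + 1), with lighter colours for higher levels, of the 8 receptors (top), 9 further amine receptors (middle) and 15 genes of amine synthesis and transport (bottom), in each of the 22 libraries, with MB for mushroom body, AL for antennal lobe and NB for neuroblasts. The neuron columns are the lightest for each of the 8 receptors, and Octbeta2R, Octbeta3R and CG18208 are also seen in both glia columns.

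Genes for making, packing and clearing the amines numbered 15, of which 11 were tested against pooled neuroblasts. In neurons 7 were higher, including the vesicular transporter Vmat (12.94 ± 0.89, log2, SE), the tyrosine hydroxylase ple (7.88 ± 1.72), the octopamine enzyme Tbh (7.17 ± 1.32) and the decarboxylase Ddc (6.64 ± 1.07), and none was lower; 14.5% of all tested genes were higher. The neuron libraries differed in which of these they held: ple was at 6.31 and 96.8 TPM, the tyramine enzyme Tdc2 at 109 and 9.83 TPM, Tbh at 642 and 99.04 TPM, and the serotonin enzyme Trh at 0 and 6.61 TPM in the first and second library. In glia 4 of the 11 were higher than in pooled neuroblasts, among them e, which couples dopamine to beta-alanine (45.2 and 109 TPM, 7.23 ± 1.33), and the dopamine transporter DAT (55.8 and 108 TPM, 2.84 ± 0.62), and none was lower, against 13.6% of all genes higher. Pu, of cofactor synthesis (6.96 ± 1.51), and ple (6.71 ± 1.65) were the others. The count was 1 without the second or the third pooled library, 2 without the first and with limma on log2(TPM + 1), and 8 in the fit of 22. Spike-in scaling gave 0 higher and 2 lower, where 249 of all genes were higher and 5648 lower. Neurons over glia gave 4 higher, among them Vmat, Ddc (4.87 ± 1.17) and Tdc2 (at least 192-fold), and 1 lower, e (-5.64 ± 1.48), where 9.37% of all genes were higher; the 5 calls became 3 without either glia library or without the first neuron library.

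Of 26 genes of cAMP and G protein signalling, through which these receptors act, 16 were higher and 1 lower in neurons than in pooled neuroblasts, where 14.5% of all genes were higher. These 17 calls became 11 without the second or the third pooled library. Spike-in scaling gave 9 higher and 5 lower, where 828 of all genes were higher and 3301 lower. The cAMP sensor Epac was at 34.3 and 106 TPM in neurons (8.61 ± 0.65, log2, SE), the PKA subunit Pka-R2 at 296 and 450.0 TPM (7.31 ± 0.39) and the adenylyl cyclase Ac76E at 20.3 and 68.4 TPM (5.88 ± 0.67). The lower gene was loco, a regulator that shortens G protein signals (0.313 and 0.162 TPM, -6.38 ± 0.68). In glia 11 of 26 were higher than in pooled neuroblasts and none was lower, with Epac (7.75 ± 0.64), Ac76E (7.33 ± 0.71), Ac78C (5.83 ± 1.02) and Pka-R2 (5.01 ± 0.36) leading; 13.6% of all genes were higher, and spike-in scaling turned the balance to 3 higher and 14 lower. Over all genes that scaling gave 249 higher and 5648 lower in glia than in pooled neuroblasts. Neurons over glia gave 8 higher and 2 lower: Ggamma1, a G protein subunit (3.14 ± 0.26), and Pka-R2 (2.30 ± 0.37) were higher, and loco (-8.55 ± 0.74) and CrebA, a transcription factor (-2.60 ± 0.50), lower. Of all genes 9.37% were higher in neurons than in glia. Spike-in scaling gave 15 of the 26 higher and 1 lower, where 2789 of all genes were higher and 465 lower. The median log2 difference over the 26 was 1.65 in neurons and 1.49 in glia over pooled neuroblasts, against 10.72 and 0.61 for the 8 receptors.

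Across the 22 libraries, the genes with the most similar profile of log2(TPM + 1) were sought among 9250 genes that reach 10 TPM in at least 2 libraries, for the 6 receptors that also do. For 5-HT1A they were CG15894 (Pearson r = 0.9901), amon and CG34127, for Oamb the myosuppressin receptor gene DmsR-1 (0.993), CG10175 and beat-Va, and for DopR the glutamate-gated channel gene GluClalpha (0.971), Alk and VAChT. Octbeta2R was nearest to CG11739 (0.972), Rbp6 and Lkr, DopEcR to tutl (0.959), nAcRalpha-80B and dpr9, and 5-HT7 to CG8909 (0.908), dpr4 and CG42492. Among the receptors, 5-HT1A and Oamb were the most alike (0.99002) and 5-HT2 and Octbeta2R the least (0.484). The libraries of a group share a cell type, and the contrast of the 2 neuron libraries with the rest sets most of these values, which describe the libraries and carry no test.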

How the data were processed

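RNA was amplified from the sorted pools, with ERCC spike-in RNA added, and sequenced, per the labels' protocols. The spike-in volume was 2.4 and 1.48 ul in the first and second neuron library and 1 ul in each other library. The deposited counts are reads per gene; the submitters' processing notes name HTSeq 0.6.1p1, STAR 2.4.0i, Bowtie2 2.1.0, cutadapt 1.7.1 and CASAVA, and the builds dm3 and mm10, without roles. Columns of the deposited TPM table, also the authors', sum to 1000000; among 2397 well counted genes the ratio of count to TPM was constant per gene and library. Reads outside genes (7.92 to 23.8% of the table) and an entry with no name (at most 17 counts) stayed out of library sizes and tests. No column of another series was present, and no replicate pair agreed within sampling noise (chi-square over degrees of freedom at least 10.5).

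Counts were tested with edgeR 4.0.16 (R 4.3.3; quasi-likelihood, robust, TMM, filterByExpr) over all genes in 3 fits without a replicate block: neurons, glia and pooled neuroblasts (9855 genes), the 4 standard neuroblast groups (9249 genes), and the 3 mushroom body groups (8766 genes). Benjamini-Hochberg adjusted p over all tested genes was called below 0.05. The procedure was checked on simulated counts. Where a group had no count, a floor of 3 counts over the group gives a limit; with 1 to 3 counts, the ratio has a 95% exact counting interval. Intervals and floors cover counting error only. Alternatives used limma 3.58.1, DESeq2 1.42.0, other scalings and filters, and each library left out. The members and gene lists were chosen with earlier results of these data known. Named were all members, all other amine receptors, up to 4 called genes of largest change per further list and comparison of cell types, and the 3 genes of most similar profile per member. Other genes were named as markers or for the spread between neuron libraries. No sequences were used here.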

Additional observations from a re-analysis of the deposited data

How the results depend on the processing

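No called receptor difference changed sign in the alternatives run: of 715 values, 655 stayed on their side of the threshold, 48 lost a call and 12 gained one. Of the differences that had not passed, 11 changed sign in 1 setting or more, none past the threshold (lowest adjusted p = 0.0754). Among them, in glia over pooled neuroblasts, DopEcR moved between 1.37 in the reported fit and -2.40 with spike-in scaling or -2.50 without the first glia library, and 5-HT7 between 1.22 and -2.15 with spike-in scaling; 5-HT7 in type II neuroblasts moved between -0.47 and 1.44 without the third pooled library. Receptor counts moved in glia over pooled neuroblasts to 4 (2 higher, 2 lower) with spike-in scaling and 1 with limma on log2(TPM + 1). In mushroom body over pooled neuroblasts they moved to 1 with each of these settings. In antennal lobe they moved to 1 with spike-in scaling, 0 with limma at either pseudocount (1 or 0.1) and 1 in a fit of all 22 libraries. In type II neuroblasts they were 0 with limma at either pseudocount and 0 in that fit, and for the 3 washes 1 with spike-in scaling. Leaving out each library gave 5 to 8 receptors in neurons over pooled neuroblasts, 2 in glia over pooled neuroblasts, 5 to 7 in neurons over glia, 1 to 2 in mushroom body, 1 to 2 in antennal lobe, 0 to 1 in type II and 0 for both handling groups; a lone library was taken to vary like the others. The cause of these moves was not tested. D2R in glia over pooled neuroblasts ranged over left-out libraries, as the log2 difference, between -2.94 without the first glia library, a reversal, and 7.55 without the second.

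Counts of called genes over the whole table moved by more than 1.5 times in some settings. In neurons over pooled neuroblasts 2438 genes were called, against 1394 to 1448 without a pooled library, 4129 with spike-in scaling (828 higher and 3301 lower, against 1431 and 1007), 4687 in the fit of 22 and 5554 with all 12 standard neuroblast libraries as the comparator. For glia over pooled neuroblasts 2029 became 836 to 894, 5897 (249 higher, 5648 lower, against 1339 and 690), 4731 and 5683 in these settings, and 3327 with DESeq2. Neurons over glia gave 1984, and 3254 with spike-in scaling (2789 higher, 465 lower), 3351 with DESeq2 and 4618 in the fit of 22. Mushroom body, antennal lobe and type II neuroblasts gave 1330, 1574 and 548, and 493, 396 and 140 in the fit of 22; antennal lobe and type II gave 461 and 1102 with spike-in scaling, and with a library left out the lowest counts were 862, 958 and 317. The 2 h wait gave 2, and 0 to 59 over the settings, and the 3 washes 73, and 0 to 2134, the highest with spike-in scaling.

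With the replicate block the receptor counts were 7, 2, 5, 3, 2, 1, 0 and 0, in the order of comparisons above, and the genes called were 1346 and 788 in neurons and glia over pooled neuroblasts, 1194 in neurons over glia and 40 for the 3 washes. Deviations of libraries with the same number correlated at -0.0683 to 0.0784. With 2 or 3 libraries in a group, these values cannot tell whether libraries of the same number share a preparation. In neuroblasts 5-HT1A, 5-HT1B and Oamb had 0 to 11 counts a library, and the part of sequencing depth in this was not tested. The deepest library, the third with 3 washes, had no count of them, where 3 counts would have been 0.0887 to 0.121 TPM.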
